A study of Mus musculus with 4 samples.

Results

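Cycling mesenchymal cells of the embryonic thymus were studied in 4 droplet scRNA Seq libraries. A cell was included when it had at least 200 genes, at most 10% of its UMIs on mitochondrial genes, at least 4 of 8 mesenchymal genes detected (Pdgfra, Pdgfrb, Twist1, Prrx1, Dcn, Lum, Postn, Fbn1), no UMI of Epcam, Ptprc, or Cdh5, at most 1 UMI of Col2a1, and at least 2 UMIs each of Top2a and Mki67. A UMI is the tag that marks a single captured transcript. The rule found 1483 cells among 31105 deposited cells, or among 7574 mesenchymal cells that passed all conditions but those on Top2a and Mki67. Cells of the same mesenchymal set with no UMI of either gene numbered 4352 and are called non-cycling, and cells between these limits were left out of that comparison group.

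The embryos came from Tbx1+/neo2 intercrosses and were taken at E13 to 13.5. Tbx1 encodes a T-box transcription factor of the pharyngeal apparatus. In neo2, an intronic neomycin cassette lowers its expression, and homozygotes are hypomorphs with a small thymus. Pregnant mice received intraperitoneal injections at E8, E9, and E10 of carrier (5% ethanol in PBS), of 200 µl minoxidil at 0.55 mg/ml, or of 90 µl PGE2 at 3.6 ng/µl. Minoxidil opens ATP-sensitive potassium channels, and PGE2 is a prostaglandin that signals through its own G protein-coupled receptors. The 4 libraries were Tbx1+/+ carrier, Tbx1neo2/neo2 carrier, Tbx1neo2/neo2 minoxidil, and Tbx1neo2/neo2 PGE2, with 1 library for each, and values are given in this order throughout. The dams of all groups were injected, so no group was left untreated. Lobes of hypoplastic thymuses were pooled according to the study's methods. With 1 library for each condition, no test between conditions was possible, and differences between embryos cannot be told apart from differences between conditions. The intervals given are exact 95% intervals (Clopper-Pearson for shares and Poisson for summed UMIs), and they cover counting error only.

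A cell copies its DNA in S phase and divides after G2 in M phase, and different sets of genes are expressed in the 2 steps. S phase genes are driven by E2F transcription factors and encode the replication machinery, whereas G2/M genes, including the mitotic cyclins and kinesins, are switched on later through CCAAT boxes and CHR elements of their promoters. The mesenchyme of the fetal thymus includes capsular fibroblasts and the pericytes that wrap its vessels, arises largely from the neural crest, and supplies growth factors to the thymic epithelium.

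The promoters of G2/M genes were searched for these elements. All 33 G2/M genes of the list were higher in cycling than in non-cycling cells of each library. Over all genes compared the higher share was 7.93%, 7.85%, 8.2%, and 8.19%. The rule split these cells by Top2a and Mki67, which are themselves high in G2/M, so this describes the selection. The sequences came from RefSeq (GRCm38.p6), with 250 bases before the start of each gene, and both strands were searched. A promoter with a window was found for 27 of the 33 G2/M genes, and those of Ccna2, Aurkb, Kif20a, Tpx2, Cdc25c, and Smc4 were not matched. A CHR element (TTTGAA or TTCGAA) occurred in 9 of the 27 (33.3%), in 5 of 23 S phase promoters (21.7%), and in 19.6% of all 27025 promoters. A CCAAT box (CCAAT) occurred in 20 of the 27 (74.1%), in 16 of 23 S phase promoters (69.6%), and in 37.5% of all promoters. Both elements occurred together in 8 of the 27 (29.6%), in 5 of 23 S phase promoters (21.7%), and in 7.0% of all promoters. Of the E2F motifs TTTGGCGC, TTTCGCGC, and TTTCCCGC, at least 1 occurred in 1 G2/M promoter (3.70%), in 7 of 23 S phase promoters (30.4%), and in 1.78% of all promoters. A match describes these letters and does not show that a factor binds there.

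A window of 100 bases that ends before the annotated transcript was examined for 25 of these genes, and 4 windows held both elements. They are printed 5′ to 3′ on the strand of the gene, with CCAAT boxes and CHR elements of either strand in capitals, because these 4 genes are read among the results that follow. Hmgb2 encodes a chromatin protein and lies on the plus strand (chr8:57511743-57511842). Cdk1, the mitotic kinase, lies on the minus strand (chr10:69352939-69353038). Cdc20, an activator of the anaphase-promoting complex, lies on the minus strand (chr4:118437353-118437452). Kif11, a spindle kinesin, lies on the plus strand (chr19:37376282-37376381).
Hmgb2: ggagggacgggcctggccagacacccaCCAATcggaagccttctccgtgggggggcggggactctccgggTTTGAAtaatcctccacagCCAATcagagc
Cdk1: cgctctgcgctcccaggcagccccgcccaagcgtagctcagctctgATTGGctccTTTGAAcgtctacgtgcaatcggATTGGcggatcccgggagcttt
Cdc20: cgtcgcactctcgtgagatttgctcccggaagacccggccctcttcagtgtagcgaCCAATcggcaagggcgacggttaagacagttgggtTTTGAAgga
Kif11: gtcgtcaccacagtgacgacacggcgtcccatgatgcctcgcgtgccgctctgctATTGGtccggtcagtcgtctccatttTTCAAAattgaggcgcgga

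The libraries held between 3362 and 11908 deposited cells and between 151740600 and 292687940 UMIs. Between 4 and 35 cell barcodes were shared by a pair of libraries (at most 0.447% of the smaller library), and none was shared among cycling mesenchymal cells. Tbx1 itself was near the lower limit of detection in cycling mesenchymal cells at 2.23, 2.97, 2.25, and 2.20 CPM (summed UMIs scaled to the same library total, as counts-per-million) with overlapping intervals, and a UMI count does not show whether a transcript comes from the neo2 allele. Sex-linked transcripts showed that the carrier libraries pooled embryos. In the Tbx1+/+ carrier library 125 of 525 cycling cells had Xist and no Y-linked UMI and 333 had Y-linked UMIs and no Xist. The corresponding numbers in the Tbx1neo2/neo2 carrier library were 44 and 468 of 559. In the minoxidil library 204 of 205 cycling cells had Xist and no Y-linked UMI, whereas in the PGE2 library 186 of 194 had Y-linked UMIs and no Xist. The sex of the embryos therefore differed between the libraries and cannot be told apart from treatment.

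The label was read beside genes that the rule did not use. The cell cycle genes among them are expressed with Top2a and Mki67, and non-cycling cells were chosen to lack both. Their difference between these groups therefore describes the selection. Mxd3 (GRCm38 chr13:55325168-55329823), a MAX-binding repressor expressed in dividing cells, was at 118 (113 to 124), 102 (96.8 to 108), 102 (95.2 to 109), and 102 CPM (94.6 to 109) in cycling cells, and between 0.479 and 2.61 CPM in non-cycling cells. At least 4 of 8 mitotic genes (Ccnb1, Ccnb2, Cdc20, Plk1, Aurka, Cenpa, Cenpf, Ube2c) were detected in 76.0%, 69.6%, 71.9%, and 65.8% of cycling cells after each cell was thinned to 10000 UMIs, and in 87.6%, 85.3%, 91.7%, and 84.0% at their own depth. Non-cycling cells never exceeded 1.12% by the same measure, and hematopoietic cells, which divide in the fetal thymus, reached 44.9% to 51.9%. Markers of other thymic lineages were low, whereas hemoglobin transcripts were not. The summed level of 6 epithelial markers was between 18.0 and 33.2 CPM, that of 6 hematopoietic markers between 8.66 and 32.9 CPM, and that of 5 endothelial markers between 11.7 and 20.5 CPM, with Foxn1 at no more than 1.12 CPM and Pecam1 at no more than 3.30 CPM. The hematopoietic sum was higher in cycling than in non-cycling cells of the carrier libraries, at 32.9 against 14.3 CPM and 20.1 against 7.66 CPM. The 6 erythroid genes summed to 3219, 4365, 2053, and 180 CPM in cycling and to 2348, 4766, 277, and 7645 CPM in non-cycling cells. The Tbx1+/+ carrier library also carried Pth, the parathyroid hormone gene, at 17.0 CPM in 27.6% of cycling cells, although Gcm2, the regulator of parathyroid cells, had only 1 UMI there. Pth had no UMI or 1 UMI in the cycling cells of the other libraries. The 6% highest doublet scores of each library included 3.05%, 5.37%, 4.88%, and 8.25% of cycling and 0.387%, 1.86%, 0.699%, and 0.268% of non-cycling cells. Whether free RNA or doublets contributed to these values was not tested.

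The cycling cells numbered 525, 559, 205, and 194. Of the cycling cells 34, 27, 15, and 8 had exactly 2 UMIs of Top2a, and 48, 35, 17, and 5 cells stayed outside with 1 UMI of Top2a and enough of Mki67. Exactly 2 UMIs of Mki67 were found in 42, 58, 10, and 13 members, and 46, 72, 16, and 22 cells stayed outside with 1. The median member had 20, 18, 33, and 29 UMIs of Top2a. The limit on Col2a1 mattered in 1 library. It removed 1678 mesenchymal cells from the Tbx1neo2/neo2 carrier library and 0, 3, and 3 from the others, and 312 of the 1678 otherwise met the rule for cycling cells. Exactly 1 UMI of Col2a1 was found in 9, 79, 1, and 1 members. The condition of no UMI of Epcam, Ptprc, or Cdh5 kept out 84, 65, 29, and 20 cells with a single such UMI and 384, 130, 53, and 35 with more. This loss was uneven between the libraries, and its bearing on the cycling shares was not tested.

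Cycling cells were a smaller share of the mesenchyme in the Tbx1neo2/neo2 carrier library than in the other 3 libraries at the depth of the files. The share was 21.7% (20.05 to 23.4; 525 of 2422 cells), 15.8% (14.7 to 17.1; 559 of 3527), 23.8% (21.0 to 26.8; 205 of 860), and 25.4% (22.3 to 28.6; 194 of 765). The libraries differed in depth, with a median of 16125, 14090, 29691.5, and 25092 UMIs for a mesenchymal cell. When each cell was thinned to 10000 UMIs before the whole rule was applied, the shares were 20.9% (19.2 to 22.6), 15.9% (14.6 to 17.2), 18.0% (15.5 to 20.7), and 18.2% (15.5 to 21.3). The Tbx1+/+ carrier share stayed above the Tbx1neo2/neo2 carrier share, but the intervals of both drug libraries then overlapped that of the Tbx1neo2/neo2 carrier library. When the mesenchymal cells were chosen at their own depth and only Top2a and Mki67 were thinned, the shares were 19.1% (17.5 to 20.8), 14.7% (13.4 to 16.03), 16.6% (14.2 to 19.3), and 18.8% (16.03 to 21.8), and the PGE2 and Tbx1neo2/neo2 carrier intervals were then barely apart. Epithelial cells counted with the same Top2a and Mki67 limits had cycling shares of 47.6%, 56.6%, 62.3%, and 65.7%, at median depths of 24861.5, 26736, 52847, and 44817 UMIs, which exceed those of the mesenchymal cells, and these shares were not thinned.

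**Figure D1:**
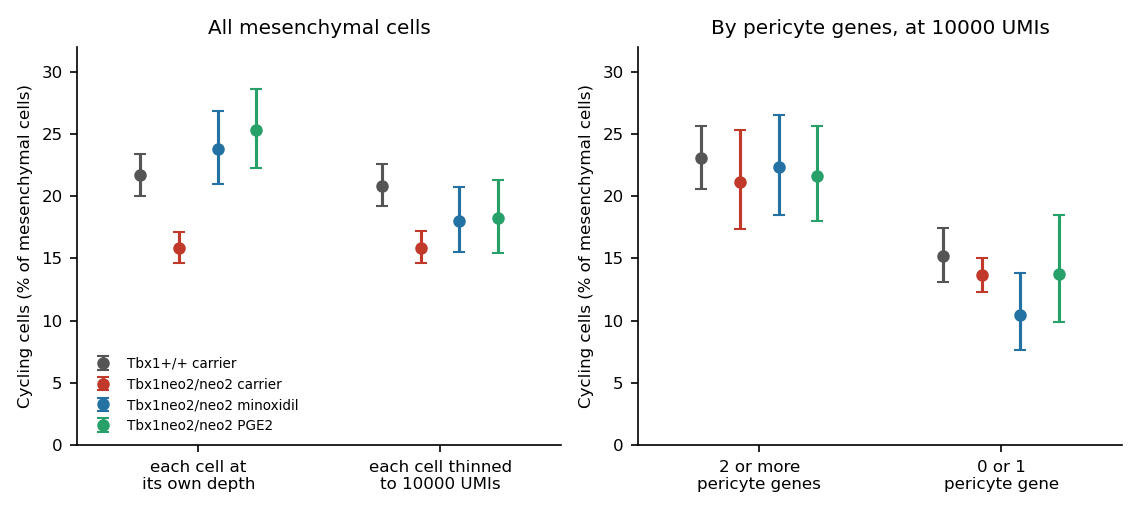
Cycling cells as a percentage of mesenchymal cells in each of the 4 libraries (points) with exact 95% binomial intervals (bars). The left panel gives all mesenchymal cells at their own depth and after thinning to 10000 UMIs, where the shares of the drug libraries move from 23.8% and 25.4% to 18.0% and 18.2%. The right panel splits the thinned cells by pericyte genes and shows 4 shares between 21.1% and 23.0% on its left and 4 between 10.4% and 15.2% on its right.

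The cycling shares of cells with pericyte genes had overlapping intervals in the 4 libraries, and the Tbx1neo2/neo2 carrier library held the smallest proportion of such cells. A cell was counted as a pericyte-gene cell when at least 2 of Kcnj8, Abcc9, Cspg4, Notch3, Rgs5, and Heyl were detected at 10000 UMIs. Kcnj8 and Abcc9 encode the pore and the sulfonylurea receptor of an ATP-sensitive potassium channel and are neighbours on chromosome 6 (GRCm38 chr6:142564837-142571614 and chr6:142587862-142702315). Among pericyte-gene cells, Top2a and Mki67 at 10000 UMIs marked 23.0% (20.6 to 25.6; 258 of 1120), 21.1% (17.3 to 25.4; 89 of 421), 22.3% (18.5 to 26.5; 98 of 439), and 21.7% (18.0 to 25.7; 102 of 471) as cycling. All 4 intervals overlap. Among the remaining cells, with 0 or 1 pericyte gene, the shares were 15.2% (13.1 to 17.4; 170 of 1119), 13.6% (12.3 to 15.0; 348 of 2551), 10.4% (7.61 to 13.8; 42 of 403), and 13.8% (9.87 to 18.5; 37 of 269). Pericyte-gene cells made up 50.02%, 14.2%, 52.1%, and 63.6% of the mesenchymal cells, so the Tbx1neo2/neo2 carrier library stood apart in their proportion. Their number was 1120, 421, 439, and 471, from libraries of 11474, 10683, 3201, and 4152 kept cells. These counts therefore also follow how many cells each library held.

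Cells with fewer than 2 Hox UMIs after thinning gave a different result. They were 25.8%, 9.86%, 22.0%, and 36.9% of the thinned mesenchymal cells. The class does not show that Hox genes were absent. At their own depth 95.05%, 98.4%, 99.0%, and 94.8% of cycling cells had at least 2 Hox UMIs. Pericyte-gene cells with fewer than 2 Hox UMIs had cycling shares of 24.9% (20.4 to 29.8; 86 of 346), 11.2% (5.74 to 19.2; 11 of 98), 23.5% (16.1 to 32.3; 27 of 115), and 20.2% (14.8 to 26.5; 40 of 198), and the intervals of the 2 carrier libraries were apart. The same was seen over all mesenchymal cells with fewer than 2 Hox UMIs, at 20.1% (16.9 to 23.6; 116 of 577) in the Tbx1+/+ carrier and 10.9% (7.59 to 15.1; 32 of 293) in the Tbx1neo2/neo2 carrier library.

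Without the thinning of Top2a and Mki67, the same pericyte-gene cells had cycling shares of 29.0%, 25.4%, 31.2%, and 28.9%. Cells with more fibroblast genes cycled less often by these counts. Fibroblast-gene cells, with at least 3 of Adamts2, Bgn, Igf1, Olfml3, Col14a1, Ogn, Fbln1, and Mfap4, had cycling shares of 16.8%, 13.7%, 13.7%, and 17.9% at 10000 UMIs. Cells with 0 or 1 of the 8 genes, of which there were 97, 48, 35, and 25, had 24.7% (16.5 to 34.5), 33.3% (20.4 to 48.4), 28.6% (14.6 to 46.3), and 36% (17.97 to 57.5). Cells with at least 5 had 10.9% (8.61 to 13.6), 13.3% (11.8 to 14.9), 11.7% (8.23 to 15.9), and 11.9% (8.57 to 15.9), and the intervals of the 2 kinds of cells were apart in the carrier libraries and in the PGE2 library. Cells with fibroblast genes and Hox UMIs but without pericyte genes had 14.9%, 13.5%, 9.55%, and 12.4%. Mesothelial-gene cells (at least 2 of Upk3b, Upk1b, Krt19, Msln, Wt1, and Lrrn4) rarely cycled in the library that held most of them, with 7 of 117 in the Tbx1+/+ carrier library (5.98%, 2.44 to 11.9). Myogenic-gene cells were found almost entirely in the Tbx1neo2/neo2 carrier library, where 10 of 26 cycled (38.5%, 20.2 to 59.4) and 17 of the 26 before thinning.

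The identity of the cycling cells themselves differed between the libraries in the same way. Thinning to 10000 UMIs left 516, 540, 203, and 190 cycling cells and 1161, 1813, 417, and 356 non-cycling cells, whose median depths before thinning were 23602, 21589, 43113, and 36143 UMIs for all cycling and 14239, 12844, 26335, and 22024 UMIs for all non-cycling cells. Pericyte-gene cells were 63.0% (58.7 to 67.2) of cycling cells in the Tbx1+/+ carrier library, 19.8% (16.5 to 23.4) in the Tbx1neo2/neo2 carrier, 67.5% (60.6 to 73.9) in the minoxidil, and 71.6% (64.6 to 77.9) in the PGE2 library. The Tbx1neo2/neo2 carrier interval lies far below the other 3, which overlap. Without thinning the shares were 78.1%, 31.8%, 88.8%, and 88.1%. Non-cycling cells had lower pericyte-gene shares in every library, at 41.9%, 10.3%, 43.6%, and 58.1%. Hematopoietic cells, which lack these genes, had 0.371%, 0.214%, 0.394%, and 0.831% at median depths of 34007, 28038, 60282, and 46213 UMIs.

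Fibroblast-gene cells were 68.4% (64.2 to 72.4), 87.2% (84.1 to 89.9), 67.0% (60.1 to 73.4), and 75.8% (69.1 to 81.7) of cycling cells. Here the Tbx1neo2/neo2 carrier library was the highest, and only its interval was apart from each of the others. Non-cycling cells had more, at 86.4%, 96.4%, 90.2%, and 88.8%, and hematopoietic cells had at most 1.93%. Without thinning the cycling shares were 90.5%, 95.2%, 95.1%, and 93.3%, so nearly all cells met the criterion at their own depth. Pericyte and fibroblast genes met in the same cells at 37.2%, 12.0%, 38.9%, and 51.6% of cycling cells, so the 2 classes are not exclusive. Fewer than 2% of cycling cells had none of the pericyte, fibroblast, or Hox criteria (1.36%, 1.48%, 1.97%, and 1.58%).

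**Figure D2:**
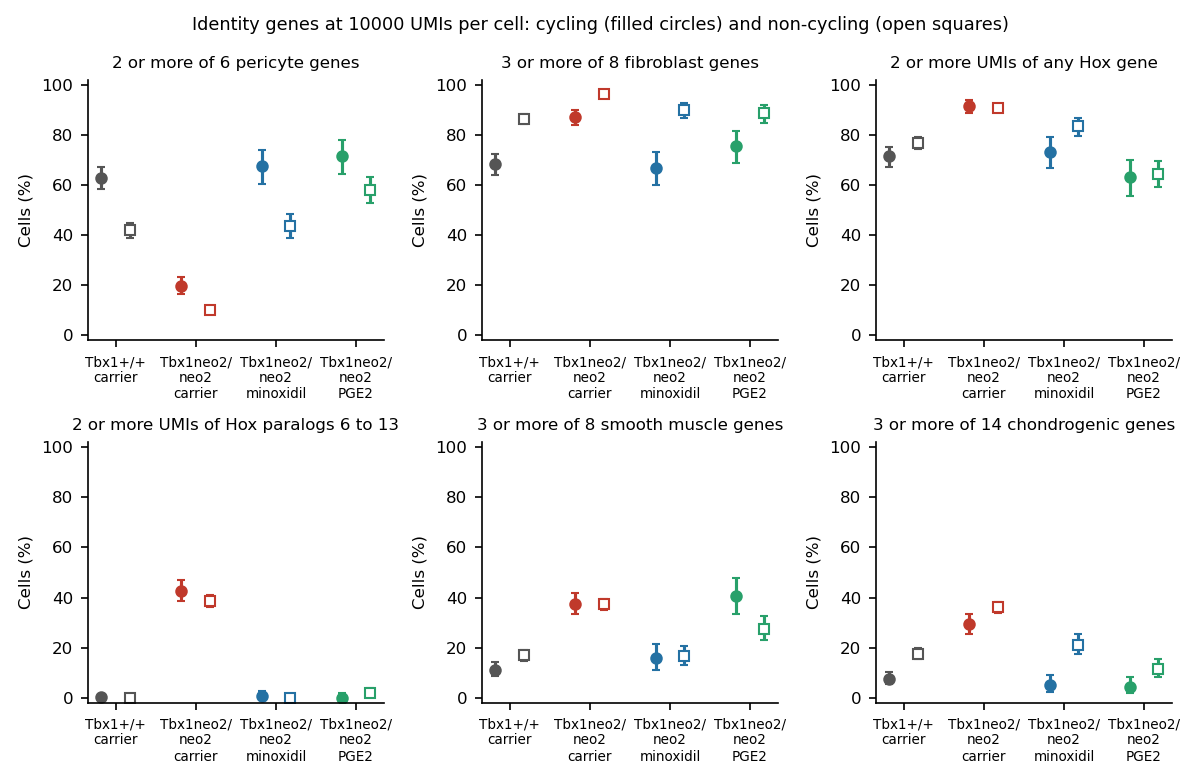
Share of cycling (filled circles) and non-cycling (open squares) mesenchymal cells that met each of 6 identity criteria at 10000 UMIs, by library, with exact 95% binomial intervals. The pericyte panel shows 63.0%, 67.5%, and 71.6% of cycling cells in the 3 other libraries against 19.8% in the Tbx1neo2/neo2 carrier library, and the panel for Hox paralogs 6 to 13 shows 42.8% in that library and under 1% of cycling cells in the rest.

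At least 2 UMIs of any Hox gene were found in 71.5% (67.4 to 75.4), 91.7% (89.0 to 93.9), 73.4% (66.8 to 79.3), and 63.2% (55.9 to 70.0) of cycling cells at 10000 UMIs. Hox genes are homeobox transcription factors whose paralog number follows the position along the body axis, with low numbers in the head and neck and higher numbers in the trunk. Non-cycling cells had 77.0%, 90.7%, 83.5%, and 64.6%, and hematopoietic cells had 5.57%, 5.35%, 3.54%, and 1.66%. At their own depth 95.05%, 98.4%, 99.0%, and 94.8% of cycling cells met this criterion. Most cycling cells of every library were thus Hox-positive, and the libraries differed mainly in which Hox genes were present.

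Hox paralogs 1 to 5 summed to 298 (289 to 308), 401 (390 to 412), 291 (280 to 302), and 245 CPM (234 to 257) in cycling cells. Hoxb2 was the highest Hox gene of the Tbx1+/+ carrier library at 99.5 CPM, against 71.1, 97.0, and 70.4 CPM in the others. Hoxa3, a gene required for the thymus to form, was at 52.9, 33.9, 47.9, and 37.2 CPM. Hox paralogs 6 to 13 summed to 1.54 (0.938 to 2.37), 279 (270 to 288), 1.35 (0.697 to 2.36), and 0.961 CPM (0.386 to 1.98). Hoxc8 (GRCm38 chr15:102990607-102994111) had 889 UMIs in 28.3% of cycling cells of the Tbx1neo2/neo2 carrier library (69.6 CPM, 65.1 to 74.3) and 0 UMIs in each of the other libraries. Hoxa7 (GRCm38 chr6:52214491-52221854) was at 81.6 CPM there and at 0.538, 0.337, and 0.137 CPM elsewhere.

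At least 2 UMIs of paralogs 6 to 13, a criterion chosen after the values were seen, were found in 1 of 516, 231 of 540, 1 of 203, and 0 of 190 cycling cells. The share in the Tbx1neo2/neo2 carrier library was 42.8% (38.6 to 47.1), beside 38.6% of its non-cycling cells, and 54.6% of its cycling cells met the criterion at their own depth. The 0 of 190 in the PGE2 library allows a share of up to 1.58%, taken as 3 counts of the total (1.92% by the exact interval). Hematopoietic cells, some of which express Hoxa genes of their own, had 4.36%, 3.43%, 1.97%, and 1.66%. The cycling share of cells with these paralogs overlapped that of cells without any in the same library, at 15.6% (13.6 to 17.8; 183 of 1173) against 13.2% (11.5 to 15.1; 190 of 1439).

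**Figure D3:**
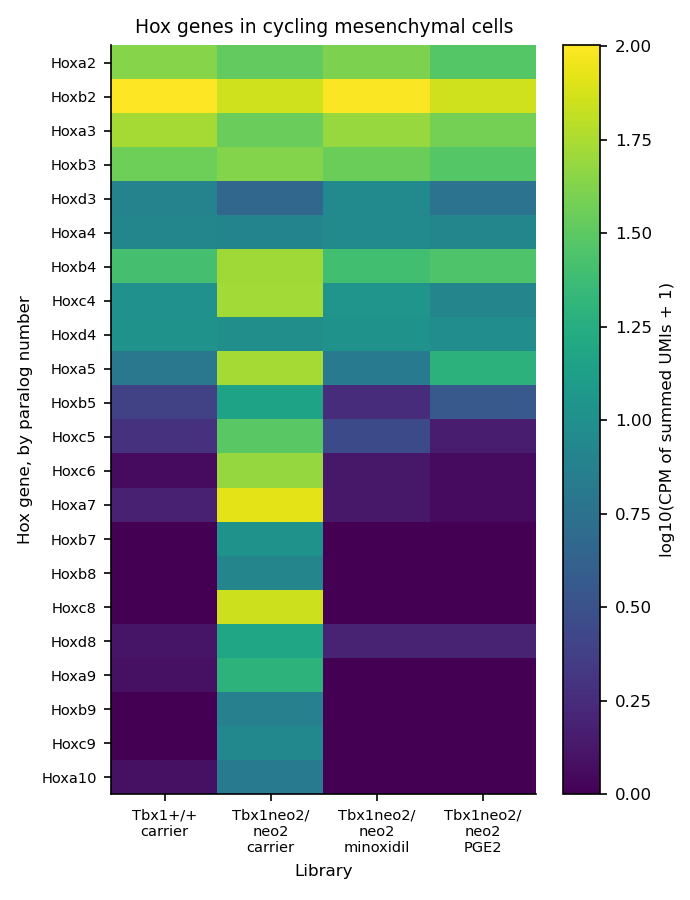
Hox genes with at least 5 CPM in 1 library, ordered by paralog number, as log10 of the CPM of summed UMIs plus 1 in cycling mesenchymal cells of each library. Genes of paralogs 6 and above, such as Hoxa7 at 81.6 CPM and Hoxc8 at 69.6 CPM, are bright in the Tbx1neo2/neo2 carrier column and at or near the dark end of the scale in the others, while Hoxb2 and Hoxa3 are bright in every column.

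In the Tbx1neo2/neo2 carrier library, which held cells of embryos of both sexes, no cycling cell with paralogs 6 to 13 had Xist alone. This split was also made after the values were seen. Xist without a Y-linked UMI was found in 0 of 231 such cells, which allows a share of up to 1.30% by the same limit of 3 counts (1.58% by the exact interval), and Y-linked UMIs without Xist in 212 (91.8%). Of the 234 cycling cells without a UMI of these paralogs, 42 had Xist and no Y-linked UMI (17.9%, 13.3 to 23.5). The share was 30.8% (22.3 to 40.5; 33 of 107) among pericyte-gene cycling cells, beside 33.8% (29.5 to 38.3; 158 of 467) of the hematopoietic cells of that library, and 2.31% (10 of 433) among cycling cells with 0 or 1 pericyte gene. Pericyte genes and paralogs 6 to 13 rarely met, in 15 of the 231 cells (6.49%), whereas 86 of the 234 cells had pericyte genes (36.8%). The number of embryos behind the 231 cells is not given in the sources used here.

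**Figure D4:**
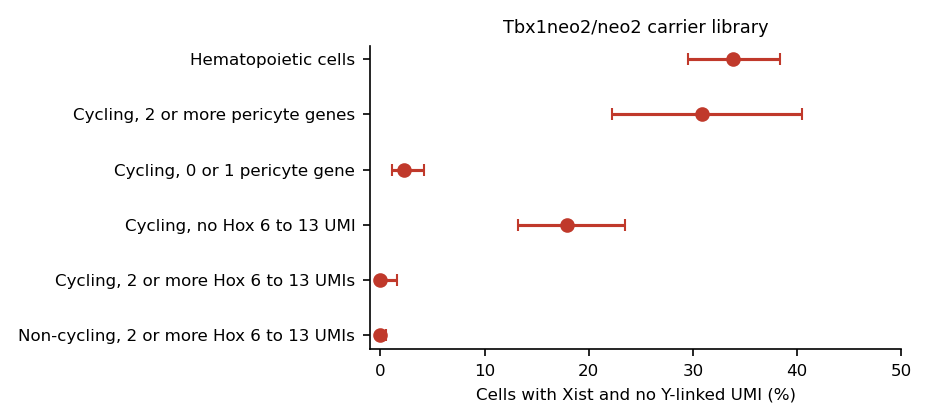
Percentage of cells of the Tbx1neo2/neo2 carrier library with Xist and no Y-linked UMI at their own depth, with exact 95% binomial intervals. Cells with at least 10000 UMIs are shown, by subsets defined after thinning to 10000 UMIs. Hematopoietic cells (33.8%) and pericyte-gene cycling cells (30.8%) lie together, and the cells with at least 2 UMIs of Hox paralogs 6 to 13 lie at 0, cycling or not.

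Within that library the cycling cells with and without paralogs 6 to 13 also differed in other genes, and those named here were chosen after their values were seen. Those with the paralogs had Aldh1a2, which makes retinoic acid, at 2.76 against 74.3 CPM. Kcnj8 was at 4.05 against 90.03 CPM and Abcc9 at 6.81 against 89.5 CPM. En1 and Twist2, transcription factors of body wall and limb mesenchyme among other places, were higher at 95.4 against 18.9 CPM and 112 against 33.8 CPM. These cells were separated by their Hox UMIs, and differences of embryo and of position cannot be told apart here.

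Few S phase and G2/M genes were past the fold rule between the cycling cells of the libraries compared, although the G2/M levels were not alike. For each comparison of libraries, UMIs were summed over the cycling cells as CPM, and a gene with at least 20 UMIs in both libraries together was past the fold rule when its ratio was at least 1.5-fold and the Poisson intervals did not overlap. In the Tbx1neo2/neo2 carrier over the Tbx1+/+ carrier library, 13010 genes were compared, of which 1392 (10.7%) were higher and 909 (6.99%) lower. Of 30 S phase genes none was higher and 1 was lower, Ung, a uracil glycosylase, at 11.04 against 18.0 CPM. Their median log2 ratio was -0.02, against 0.04 over all genes. The summed level of the S phase genes was 3032, 2968, 3016, and 3085 CPM.

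Of 33 G2/M genes, none was higher and 1 was lower in the same comparison. This was Ccnb2, a mitotic cyclin, at 180 (173 to 187) in the Tbx1+/+ carrier and 119 CPM (113 to 125) in the Tbx1neo2/neo2 carrier library. The list leaned downward as a whole, with a median log2 ratio of -0.32 and no gene above 0. Its summed level was 9954, 8329, 9531, and 8644 CPM, with intervals apart. The 8 mitotic genes summed to 2719, 2133, 2415, and 1977 CPM, likewise with intervals apart. The genes with printed promoters were within 1.5-fold, with Hmgb2 at 2242, 1970, 2416, and 2076 CPM, Cdk1 at 439, 389, 398, and 374 CPM, Cdc20 at 220, 153, 198, and 158 CPM, and Kif11 at 191, 156, 180, and 187 CPM. Ube2c, the ubiquitin-conjugating enzyme of mitotic exit, was at 990, 747, 791, and 648 CPM and likewise not past the rule in any comparison. The rule selected cells on Top2a and Mki67, which are themselves high in G2/M, so these levels describe cells chosen at that stage.

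Few S phase and G2/M genes were past the rule in the drug libraries as well. The minoxidil and PGE2 comparisons share the Tbx1neo2/neo2 carrier library. Over that library, 1018 of 12806 genes (7.95%) were higher and 1224 (9.56%) lower with minoxidil, and 1033 of 12692 (8.14%) higher and 1163 (9.16%) lower with PGE2. With minoxidil 2 of 30 S phase genes were higher (Pcna at 110 against 71.7 CPM and Ung at 20.7 against 11.04 CPM) and 2 of 33 G2/M genes (Ccnb2 at 201 against 119 CPM and Ect2 at 85.0 against 54.8 CPM). With PGE2 Ung and Ccne2 of the S phase genes and Ect2 of the G2/M genes were higher. No gene of either list was lower in either drug library. The list medians (S phase, then G2/M) were 0.01 and 0.22 with minoxidil and 0.06 and 0.11 with PGE2, against -0.06 and -0.08 over all genes.

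In non-cycling mesenchymal cells the same rule called 8.45% of genes higher and 10.9% lower in the Tbx1neo2/neo2 carrier over the Tbx1+/+ carrier library. It called 11.2% higher and 8.04% lower with minoxidil, and 9.35% higher and 8.91% lower with PGE2, over the Tbx1neo2/neo2 carrier library. The differences between libraries were thus not limited to dividing cells.

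**Figure D5:**
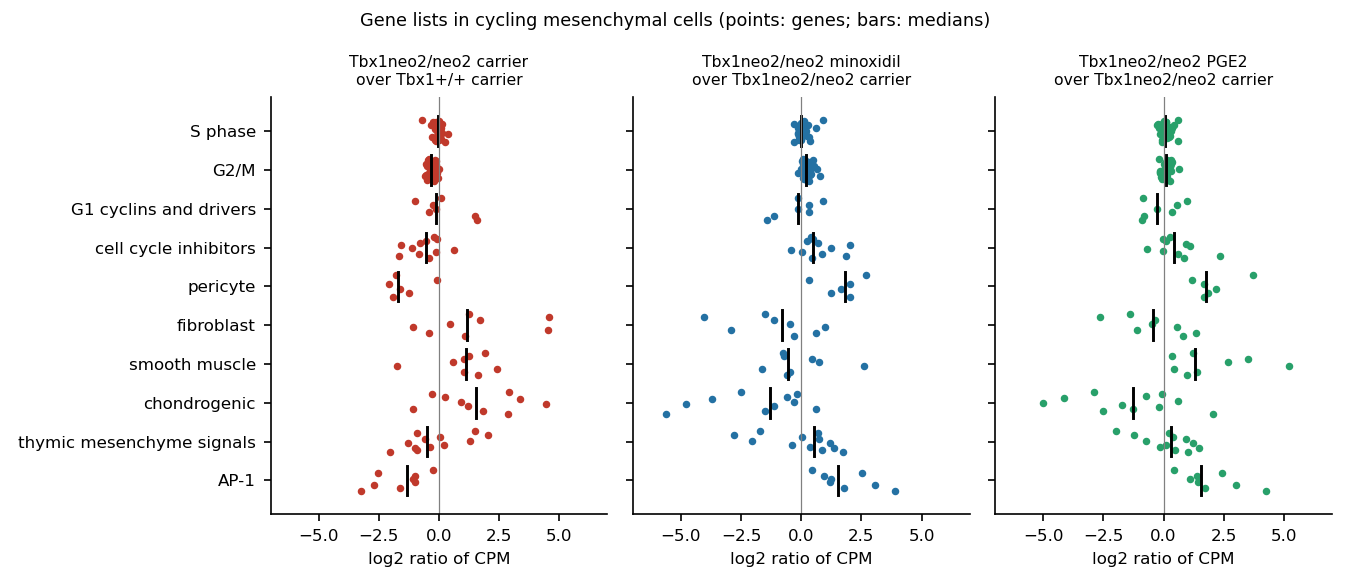
log2 ratios of CPM in cycling mesenchymal cells for the genes of 10 lists (points) with the median of each list (bars), in 3 comparisons of libraries, of which the right 2 share the Tbx1neo2/neo2 carrier library. S phase and G2/M genes lie close to 0 in all 3 panels, with medians between -0.32 and 0.22, whereas pericyte and AP-1 genes lie left of 0 in the first panel (medians -1.70 and -1.35) and right of 0 in the others.

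The D-type cyclins, which carry growth signals to the cycle in G1, differed more than the S and G2/M genes did. Ccnd1 was at 40.5 (37.1 to 44.1), 122 (116 to 128), 45.1 (40.8 to 49.7), and 66.0 CPM (60.2 to 72.2). Ccnd2 was at 138 (132 to 145), 391 (381 to 402), 178 (170 to 187), and 225 CPM (214 to 236). Both were highest in the Tbx1neo2/neo2 carrier library, past the fold rule in all 3 comparisons, and the log2 ratio of Ccnd1 over the Tbx1+/+ carrier library was 1.59 (1.44 to 1.73). They lie at GRCm38 chr7:144929931-144939925 and chr6:127125162-127152193. Ccnd3 stayed within 1.5-fold at 231, 176, 221, and 222 CPM, as did Cdk4, the kinase of these cyclins, at 504, 464, 425, and 389 CPM. Myc, a transcription factor that promotes growth, went the other way at 28.2, 14.1, 26.2, and 28.0 CPM, past the rule in each comparison. Of the 7 G1 genes, 2 were higher and 1 lower in the Tbx1neo2/neo2 carrier over the Tbx1+/+ carrier library.

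The Ccnd1 difference was larger in cells without pericyte genes, although the 2 differences were not tested against each other. In cycling cells with 0 or 1 pericyte gene Ccnd1 was at 137 CPM in the Tbx1neo2/neo2 carrier and 36.6 CPM in the Tbx1+/+ carrier library. In pericyte-gene cycling cells it was at 62.8 against 42.8 CPM, which was not past the rule. Ccnd2 was past the rule in both kinds of cells, at 419 against 115 CPM and at 287 against 151 CPM. Without any cell that had a UMI of Hox paralogs 6 to 13, Ccnd1 was still at 114 against 40.2 CPM and Ccnd2 at 333 against 137 CPM. In non-cycling cells Ccnd1 was at 52.5, 170, 58.8, and 77.8 CPM and Ccnd2 at 268, 574, 289, and 346 CPM, with the same library highest.

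Of 11 inhibitors of the cycle, 1 was higher and 3 were lower in the Tbx1neo2/neo2 carrier over the Tbx1+/+ carrier library, with a median log2 ratio of -0.54. The higher gene was Cdkn1c, an imprinted inhibitor of cyclin-dependent kinases, at 2179 (2154 to 2204), 3349 (3318 to 3381), 2485 (2452 to 2518), and 2111 CPM (2078 to 2145). It was more abundant in non-cycling cells, at 3607, 4098, 3610, and 3540 CPM. Cdkn2c, an inhibitor of Cdk4 and Cdk6, was lower at 29.7, 17.4, 28.5, and 33.3 CPM, and it was nearly absent from non-cycling cells at 0.312 to 0.718 CPM. Btg2, an antiproliferative gene that also responds to stress, was at 242, 76.4, 278, and 391 CPM. The remaining lower gene was Cdkn2b at 6.07 against 2.03 CPM. Of these inhibitors 3 of 11 were higher and none lower with minoxidil over the Tbx1neo2/neo2 carrier library. With PGE2 4 of 10 were higher and 1, Cdkn1c, was lower, at a log2 ratio of -0.67 (-0.69 to -0.64).

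The pericyte genes were lower in the Tbx1neo2/neo2 carrier over the Tbx1+/+ carrier library at 5 of 6, with a median log2 ratio of -1.70. Kcnj8 was at 175 (168 to 182), 41.6 (38.2 to 45.3), 169 (161 to 178), and 133 CPM (125 to 142). Abcc9 was at 154, 41.2, 168, and 132 CPM. The Tbx1neo2/neo2 carrier library was alone in its low level of both channel genes. Rgs5, a regulator of G protein signaling in pericytes, was at 74.7 (70.1 to 79.6), 21.9 (19.4 to 24.6), 140 (132 to 148), and 285 CPM (273 to 298). Cspg4, the NG2 proteoglycan, was at 29.1, 12.2, 28.7, and 43.6 CPM, and Heyl, a Notch target, at 35.3, 11.3, 35.5, and 50.8 CPM. Notch3, the exception, was at 32.3, 30.6, 38.6, and 70.3 CPM. With minoxidil 5 of 6 were higher than in the Tbx1neo2/neo2 carrier library (median 1.83) and with PGE2 all 6 (median 1.76).

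In the pericyte-gene cycling cells alone, the channel genes were within 1.5-fold between these libraries, with Kcnj8 at 175 in the Tbx1neo2/neo2 carrier against 246 CPM in the Tbx1+/+ carrier library and Abcc9 at 184 against 209 CPM. These cells were picked by these genes, which limits how far their levels can differ. Rgs5 in pericyte-gene cycling cells was at 110 CPM in the Tbx1+/+ carrier library, 108 CPM in the Tbx1neo2/neo2 carrier, 190 CPM with minoxidil, and 385 CPM with PGE2.

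Of 8 fibroblast genes, 5 were higher and 1 lower in the Tbx1neo2/neo2 carrier over the Tbx1+/+ carrier library, with a median of 1.15. Ogn (GRCm38 chr13:49608046-49624501), a small leucine-rich proteoglycan, was at 12.3 (10.5 to 14.3), 288 (279 to 298), 17.7 (15.0 to 20.6), and 45.8 CPM (41.1 to 51.0). Col14a1, a fibril-associated collagen, was at 3.76, 88.0, 11.7, and 41.2 CPM, and Olfml3 at 51.8, 122, 42.9, and 46.4 CPM. The Tbx1neo2/neo2 carrier library was highest for all 3 of these. The gene that was lower was Fbln1, which encodes fibulin 1, at 293, 138, 271, and 204 CPM. Ogn was also past the rule within pericyte-gene cycling cells, at 94.8 against 4.62 CPM. With minoxidil 2 of 8 were higher and 4 lower than in the Tbx1neo2/neo2 carrier library, and with PGE2 2 were higher and 3 lower.

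Smooth muscle genes gave different values in the 2 drug libraries. Acta2, smooth muscle actin, was at 152 (146 to 159), 466 (455 to 478), 308 (297 to 320), and 922 CPM (900 to 944). Eln (GRCm38 chr5:134702593-134747323), which encodes elastin, was at 135 (129 to 141), 40.6 (37.2 to 44.3), 248 (238 to 259), and 1492 CPM (1464 to 1520). Eln was lowest in the Tbx1neo2/neo2 carrier library and highest with PGE2, at a log2 ratio of 5.20 (5.07 to 5.33) between these libraries. Of the 8 genes, 6 were higher and 1, Eln, lower in the Tbx1neo2/neo2 carrier over the Tbx1+/+ carrier library. With minoxidil 2 were higher and 4 lower than in the Tbx1neo2/neo2 carrier library (median -0.53), and with PGE2 6 were higher and 0 lower (median 1.32). Myh11, the smooth muscle myosin, was at 1.92, 3.91, 5.40, and 44.2 CPM.

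These smooth muscle values depended on the kind of cell. In pericyte-gene cycling cells Eln was at 178, 35.6, 323, and 1994 CPM, and Acta2 was at 415 CPM in the Tbx1neo2/neo2 carrier and 418 CPM in the minoxidil library. In cycling cells with 0 or 1 pericyte gene, Acta2 was at 485 and 32.2 CPM in these libraries. At least 3 of the 8 smooth muscle genes were detected in 11.2% (8.65 to 14.3), 37.6% (33.5 to 41.8), 15.8% (11.04 to 21.5), and 40.5% (33.5 to 47.9) of cycling cells at 10000 UMIs, and in 26.3%, 51.9%, 40%, and 57.7% at their own depth. Hematopoietic cells had at most 0.214%. Smooth-muscle-gene cells had cycling shares of 14.2%, 14.5%, 15.8%, and 22.0% (16.9 to 27.7) at 10000 UMIs, and the PGE2 interval was apart from that of the Tbx1neo2/neo2 carrier library (12.5 to 16.7) only.

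Chondrogenic genes remained present in the Tbx1neo2/neo2 carrier cycling cells although cells with more than 1 UMI of Col2a1 had been left out. Sox9, the transcription factor of cartilage precursors, was at 21.7 (19.3 to 24.4), 161 (154 to 168), 28.2 (24.8 to 31.9), and 22.0 CPM (18.7 to 25.6). Col9a3 was at 1.84, 39.9, 1.46, and 1.24 CPM and Matn4, a cartilage matrix protein, at 4.45, 45.3, 3.49, and 2.61 CPM. Of the 14 genes, 10 passed the minimum of 20 UMIs in the first comparison, 6 of them were higher and 1, Col9a1, was lower. Sox5 and Sox6, the partners of Sox9, were not past the rule in that comparison, at 6.14 and 7.28 CPM and at 4.84 and 3.99 CPM. At least 3 chondrogenic genes were detected in 7.56%, 29.3%, 4.93%, and 4.21% of cycling cells, and in 17.5%, 36.1%, 21.1%, and 11.5% of non-cycling cells, at 10000 UMIs. At their own depth 23.6%, 47.05%, 39.0%, and 29.9% of cycling cells met this criterion. Scx, the transcription factor of tendon precursors, was at 5.38, 158, 1.80, and 1.51 CPM.

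Signals of the thymic mesenchyme were mixed in the cycling cells. In the Tbx1neo2/neo2 carrier over the Tbx1+/+ carrier library 6 of 12 were lower and 3 higher, with a median of -0.48. Aldh1a2 (GRCm38 chr9:71215789-71296243) was at 135 (129 to 142), 33.3 (30.2 to 36.7), 110 (104 to 118), and 67.8 CPM (61.9 to 74.0). Fgf10, a growth factor for the thymic epithelium, was at 40.5, 16.4, 38.1, and 38.0 CPM, Bmp4 at 101, 53.3, 98.2, and 74.1 CPM, and Cxcl12, a chemokine that attracts progenitors, at 202, 102, 260, and 281 CPM. Wnt5a was higher in the Tbx1neo2/neo2 carrier library at 125 CPM, against 44.2, 37.8, and 31.7 CPM in the others. In pericyte-gene cycling cells Aldh1a2 was at 116 against 158 CPM and Cxcl12 at 119 against 163 CPM in the Tbx1neo2/neo2 carrier and Tbx1+/+ carrier libraries, both within the rule. In cells with 0 or 1 pericyte gene the corresponding values were 13.3 against 90.3 CPM and 97.5 against 279 CPM. Over the Tbx1neo2/neo2 carrier library, 5 signals were higher and 3 lower with minoxidil, and 4 were higher and 3 lower with PGE2.

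Regional transcription factors split in both directions in the cycling cells, with 7 of 15 higher and 5 lower in the Tbx1neo2/neo2 carrier over the Tbx1+/+ carrier library (median 0.56). Tcf21, a factor of visceral mesenchyme, was at 125, 20.8, 132, and 48.3 CPM, and Foxc2 at 43.5, 9.94, 37.8, and 30.1 CPM. Hand2, a factor of the pharyngeal neural crest, was at 136, 43.4, 150, and 125 CPM. Zfhx4, by contrast, was at 12.7, 268, 16.2, and 28.7 CPM and Meox1, a factor of somites, at 15.4, 83.7, 14.8, and 12.9 CPM. Tcf21 was higher in cycling than in non-cycling cells of every library, and least so with PGE2, with non-cycling levels of 77.5, 9.94, 87.4, and 41.6 CPM.

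AP-1 and immediate early genes, which respond to growth signals and to stress, were lower in the Tbx1neo2/neo2 carrier cycling cells. Of 8 genes 7 were lower than in the Tbx1+/+ carrier library and none higher, with a median log2 ratio of -1.35. Fos (GRCm38 chr12:85473890-85477273) was at 1032 (1015 to 1050), 157 (150 to 164), 1300 (1277 to 1324), and 1274 CPM (1248 to 1300). Junb was at 428, 74.7, 435, and 402 CPM and Atf3 at 49.6, 5.24, 78.4, and 99.1 CPM. Jund was the exception and stayed within 1.5-fold in all comparisons. In each drug library 7 of the 8 were higher than in the Tbx1neo2/neo2 carrier library, with medians of 1.51 and 1.58. Fos was lower in both pericyte-gene cycling cells (277 against 969 CPM) and cells with 0 or 1 pericyte gene (129 against 1154 CPM) of the Tbx1neo2/neo2 carrier library. Non-cycling cells had Fos at 1213, 157, 1538, and 1543 CPM, with the same library lowest. Dissociation of tissue by trypsin can induce these genes, and its part in the result was not tested.

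Of all genes that reached 50 CPM in either library, the smallest ratios of the Tbx1neo2/neo2 carrier over the Tbx1+/+ carrier library belonged to Socs3 (29.0 against 313 CPM), Zfp36 (18.1 against 135 CPM), Fos, Klf2 (28.5 against 184 CPM), and Tcf21. Socs3 is an inhibitor of cytokine signaling, and Zfp36 encodes a protein that destabilizes mRNA. The largest belonged to Hoxc8, En1, Hoxa7, Thbs4 (56.0 against 0.538 CPM), and Angptl1 (161 against 3.46 CPM). Hoxc8 had no UMI in the Tbx1+/+ carrier cycling cells, and with these set at a floor of 3 counts its log2 ratio was 8.24, with a lower limit of 7.94 by the exact interval. En1 had none either, and its log2 ratio was 7.96 at the same floor, with a lower limit of 7.66. The largest ratios with minoxidil over the Tbx1neo2/neo2 carrier library included Socs3 (345 against 29.0 CPM) and Zfp36 (181 against 18.1 CPM), and those with PGE2 included Eln, Atf3, Rgs5, Cxcl1 (60.8 against 2.27 CPM), and Nupr1 (108 against 6.73 CPM). Among the smallest ratios stood Ddx3y with minoxidil and Xist with PGE2, both of which follow the sex of the embryos.

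Cycling and non-cycling cells of the same library shared embryos, dissociation, and treatment. The rule separates them by Top2a and Mki67, so the ratios are a description. Genes higher in cycling cells made up 7.93%, 7.85%, 8.2%, and 8.19% of those compared, and genes lower 13.8%, 5.37%, 12.3%, and 7.91%. All 33 G2/M genes were higher in cycling cells of every library. Beside Top2a and Mki67, the genes with the largest ratios in their least extreme library were led by Depdc1a (103, 76.4, 99.3, and 98.8 against 0.521, 0.495, 0.260, and 0.120 CPM), Nusap1, Hmmr, and Esco2, which encode proteins of the spindle and of sister chromatid cohesion apart from Depdc1a. The smallest ratios were those of Maf (19.4, 31.1, 15.3, and 22.9 against 73.3, 69.6, 70.9, and 61.3 CPM), Mxd4, a MAX-binding repressor of resting cells (48.0, 54.2, 50.5, and 54.8 against 114, 126, 108, and 125 CPM), Igf1 (241, 335, 245, and 239 against 595, 633, 588, and 550 CPM), and Ogn. Igf1 and Ogn are on the fibroblast list, whose summed level was 908, 1484, 988, and 1259 CPM in cycling and 1543, 2286, 1666, and 1953 CPM in non-cycling cells. The pericyte list went the other way, at 500, 159, 580, and 715 CPM in cycling and 318, 87.8, 356, and 511 CPM in non-cycling cells.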

How the data were processed

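Thymic lobes of E13 to 13.5 embryos were measured by droplet scRNA Seq in 4 libraries, 1 for each condition. The deposited files hold raw UMI counts for each cell. According to the labels and the study's methods, the authors aligned and counted reads with Cell Ranger 5.0.1 on mm10 and went on in Seurat. Whether intronic reads were counted is not given in the sources used here. The 27998 genes of the files were used without other normalization, and cells were kept and chosen by the rule stated with the results. The cells to study and the gene lists were chosen with earlier results of these data known.

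Shares were computed with exact binomial (Clopper-Pearson) and summed counts with exact Poisson intervals at 95%, in Python 3.11.15 (numpy 2.4.6, scipy 1.17.1, pandas 2.3.3). Identity shares were computed after thinning each cell to 10000 UMIs, which leaves out shallower cells. Ratios between libraries took genes with at least 20 UMIs in both together, with a sum of 0 set at 3 counts. The named genes were those of the lists, the 5 largest and 5 smallest ratios of each comparison at a minimum of 50 CPM, and the 10 largest and 10 smallest ratios of cycling over non-cycling cells. The calculation was tested on simulated data, where it found 98%, 96%, and 93% of genes changed 2-fold in the 3 comparisons in the order given. The changes were set only in genes well above the minimum of 20 UMIs, and the simulated counts held Poisson error alone. Recovery nearer that minimum, or with differences between embryos, was not tested. No doublets were removed beyond the rule. Scrublet in scanpy 1.11.5 called 5.27%, 0.00936%, 2.12%, and 1.69% of the kept cells, so it did not work on the Tbx1neo2/neo2 carrier library, and the 6% highest scores were left out instead as an alternative. TMM factors came from edgeR 4.0.16 (R 4.3.3), and figures from matplotlib 3.10.9. Alternatives covered the mitochondrial limit, the gene and UMI limits of the rule, depth, doublets, scaling, and the minimum of UMIs. The condition on Epcam, Ptprc, and Cdh5 was not varied. Gene positions were those of GENCODE M21 on GRCm38, matched by Ensembl identifier.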

Additional observations from a re-analysis of the deposited data

How the results depend on the processing

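No paired analysis was possible because each condition had 1 library, and for the same reason no library could be left out of a condition. Of 39 alternative values for the share of mesenchymal cells that cycle, 27 moved by less than the counting interval. With a mitochondrial limit of 5% the shares were 33.6%, 24.8%, 29.8%, and 31.7% in the order Tbx1+/+ carrier, Tbx1neo2/neo2 carrier, minoxidil, and PGE2. With at least 1 UMI each of Top2a and Mki67 they were 26.8%, 19.96%, 29.2%, and 31.1%, and with at least 3 they were 19.1% and 13.7% in the carrier libraries. Thinning to 10000 UMIs before the rule gave 18.0% with minoxidil and 18.2% with PGE2. The Tbx1neo2/neo2 carrier share was the lowest of the 4 under each of these alternatives, but after thinning its interval overlapped those of the drug libraries.

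Pericyte-gene shares of cycling cells were 78.1%, 31.8%, 88.8%, and 88.1% without thinning and 37.2%, 9.63%, 40.9%, and 46.8% with at least 3 genes. Fibroblast-gene shares were 90.5%, 95.2%, 95.1%, and 93.3% without thinning and 38.6%, 74.4%, 39.9%, and 53.2% with at least 4 genes. Hox shares were 95.05%, 98.4%, 99.0%, and 94.8% without thinning and 53.1%, 82.2%, 57.1%, and 43.7% with at least 3 UMIs. Without thinning the fibroblast and Hox intervals of the Tbx1neo2/neo2 carrier library overlapped those of both drug libraries. They stayed apart from those of the Tbx1+/+ carrier library. The fibroblast intervals were 93.1 to 96.8% against 87.6 to 92.8%, and the Hox intervals 97.0 to 99.3% against 92.8 to 96.7%.

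Leaving out cells with a UMI of Hox paralogs 6 to 13 at 10000 UMIs, an alternative chosen after seeing the data, could keep cells with such UMIs at their own depth. This choice reduced the genes past the fold rule from 1392 higher and 909 lower to 783 and 510 in the Tbx1neo2/neo2 carrier over the Tbx1+/+ carrier library. The same choice gave 583 higher and 654 lower with minoxidil, and 680 and 653 with PGE2, and it also leaves fewer cells and thus fewer counts. TMM factors, other minimums of UMIs, and leaving out the 6% highest doublet scores kept each of these 6 counts within 1.5 times. The calls of Scrublet gave no value for the Tbx1neo2/neo2 carrier library or for any comparison with it. Depth limited what could be detected for genes with few UMIs, and cells with fewer than 10000 UMIs carry no identity share.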

Other observations

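The cells that the limit on Col2a1 set aside included a further group of dividing cells in the Tbx1neo2/neo2 carrier library. Of its 1678 mesenchymal cells with at least 2 UMIs of Col2a1, 312 met the limits on Top2a and Mki67 (18.6%, 16.8 to 20.5). At 10000 UMIs 303 of the 312 remained. At least 3 of 14 chondrogenic genes were detected in 97.0% of them (94.4 to 98.6), and at least 2 UMIs of Hox paralogs 6 to 13 in 62.0% (56.3 to 67.5; 188 cells). Pericyte-gene cells were 6.60% of them (4.08 to 10.01), beside 19.8% of the cycling cells with at most 1 UMI of Col2a1 in that library.

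A few dividing cells of other kinds lay among the cycling mesenchymal cells of the Tbx1neo2/neo2 carrier library. At least 2 of 7 myogenic genes were detected in 17 of 540 cells (3.15%) and in 1, 0, and 0 cells of the Tbx1+/+ carrier, minoxidil, and PGE2 libraries. Pax7, a marker of muscle progenitors, was at 7.75 CPM in cycling and 0.198 CPM in non-cycling cells of the Tbx1neo2/neo2 carrier library. Glial genes were met in 5 cells there and in 1, 0, and 0 cells of the others. Sox10, a factor of glia and neural crest, was at 2.90 CPM and had no UMI in the cycling cells of the other 3 libraries.

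Hemoglobin genes differed among themselves across the libraries. Hbb-y, an embryonic globin, was at 2044, 1123, 22.2, and 20.6 CPM in cycling cells of the Tbx1+/+ carrier, Tbx1neo2/neo2 carrier, minoxidil, and PGE2 libraries. Hbb-bs, an adult globin, was at 392.4, 1509, 1023, and 80.4 CPM in the same order. More than 1% of UMIs came from hemoglobin genes in 7, 8, 1, and 0 cycling cells.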
